A study of Homo sapiens with 4 samples.

Results

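The genes described here are the nuclear genes of the mitochondrial ribosomal proteins, read in SKOV3 cells grown as an attached culture and as spheroids. They were chosen by symbol alone: every gene whose symbol is MRPL or MRPS followed by a number, with an optional letter A to C. The rule found 78 of the 19475 gene symbols (147 of 50078 transcripts), and each gene was represented by its transcript with the highest mean level. SKOV3 is an established human ovarian cancer line with an epithelial origin and many copies of ERBB2. The study asked how a culture plate coated with a polymer thin film, polymer X, changes these cells, which gather into spheroids on the film and stay attached on an ordinary tissue culture plate (TCP). The TCP group held 2 libraries labelled day 0, and the polymer X group held 2 libraries labelled day 8. No genotype or drug differed between the groups, and each group was the unmodified line. Surface and day changed together, and the stated growth protocol describes serum replacement medium on polymer X for all 4 libraries, so surface, time and any difference in medium cannot be told apart. Nothing in the labels says whether the 2 libraries of a group came from separate cultures, so the tests below measure the spread between libraries, which may be technical.

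Mitochondria carry their own ribosomes, which translate the few proteins encoded by mitochondrial DNA, all of them subunits of the respiratory chain and ATP synthase. The ribosomal RNAs of these particles come from the mitochondrial genome, whereas every protein of the large (MRPL) and small (MRPS) subunit is encoded in the nucleus, made in the cytosol and imported. Some of the proteins descend from bacterial ribosomal proteins and others were added during the evolution of mitochondria. MRPS36 is an exception among the symbols: its product is now known as KGD4, a component of the oxoglutarate dehydrogenase complex of the citric acid cycle. MRPS30 and MRPS18A carry small subunit names but sit in the large subunit, and they were counted there. This gave 51 genes of the large subunit, 26 of the small subunit and MRPS36.

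Levels are FPKM, fragments per length of transcript and per library depth, which correct for length and can be compared between genes. The steps between the lowest deposited values placed the 4 libraries at depths between 38406000 and 44911000 tags. Over the 11964 genes that reached 1 FPKM in 2 or more libraries, log2(FPKM + 1) correlated at r = 0.998 between the TCP libraries, 0.997 between the polymer X libraries and 0.854 to 0.862 between groups, as a description across genes. Of 9 markers of an ovarian epithelial line, 6 passed the filter on low values. KRT8 was listed at 262 and 269 FPKM on TCP and 146 and 143 on polymer X, KRT18 at 123 and 121 against 89.3 and 89.6, and KRT7 at 8.33 and 7.57 against 4.57 and 4.04. ERBB2 was at 198 and 206 against 913 and 860, and PAX8 at 48.8 and 50.5 against 102 and 108. EPCAM was nearly absent on TCP, at 0.168 and 0.104 FPKM, and was at 1.39 and 1.325 on polymer X. KRT19, WT1 and MUC16 were under 1 FPKM in every library. Of 9 markers of leukocytes, endothelium and fibroblasts, CD3E was at 0 throughout, CDH5 and VWF did not exceed 0.025 FPKM and PDGFRB did not exceed 0.115. The endothelial marker PECAM1 was at 0 in both TCP libraries and at 0.573 and 0.458 FPKM on polymer X, and the leukocyte marker PTPRC was at 0.005 and 0 against 0.468 and 0.530. The summed level of the 9 was 25.4 to 25.9 FPKM on TCP and 54.6 to 56.0 on polymer X, with CD68 (17.0 and 17.4 against 42.3 and 44.9) and DCN (0.025 and 0 against 7.26 and 6.20) higher and COL1A1 (8.21 and 8.47 against 3.81 and 3.77) lower. Their part in the results below was not tested. In libraries of whole cultures, fewer cells of a type and less RNA per cell cannot be told apart.

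Nearly the whole set was lower on polymer X. Of the 78 genes, 77 passed the filter on low values, with FPKM from 3.64 to 159 and about 124 to 6706 tags in a library. Of these, 65 fell and 1, MRPS6, rose at an adjusted p under 0.05 (limma across all tested genes, Benjamini-Hochberg), and 11 did not pass. Over all tested genes, 43.6% fell and 37.4% rose by the same test, so calls in themselves were common and the share that fell among the mitochondrial ribosomal protein genes, 84.4%, is to be read against that background. Over these 77 the median log2 fold change was -0.73, with quartiles of -0.93 and -0.34 and a range from -1.64 to 1.16. The median over all tested genes was -0.06. A log2 fold change here is the difference in mean log2(FPKM + 1), polymer X minus TCP, which understates the change of low genes.

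The individual libraries gave the same picture. The median of log2(FPKM + 1) over the 77 genes was 4.97 and 4.83 in the TCP libraries and 4.27 and 4.13 in the polymer X libraries, against a replicate SD of 0.101. The exact two-sided permutation test over the 4 libraries gave p = 0.333, the smallest p that 2 against 2 libraries allow. Summed over the 78 genes, the level was 2919 and 2660 FPKM on TCP and 1756 and 1660 FPKM on polymer X, a ratio of 0.612. The sum over all tested genes was also lower, at 313215 and 302769 FPKM on TCP and 277080 and 270703 on polymer X, a ratio of 0.889. Both polymer X libraries lay below both TCP libraries for 69 of the 77 genes and above them for 2, MRPS6 and MRPS25. The same order, polymer X below TCP without overlap, held for 48.4% of all tested genes. Of the 77 genes, 15 fell with a log2 fold change of -1 or less, a larger share than the 9.45% of all tested genes. Only MRPS6 rose by 1 or more, a smaller share than the 10.7% of all tested genes. Under quantile normalization of the libraries the median of the 77 genes was -0.52, 57 fell, 3 rose and 5 fell by 1 or more. All tested genes then had a median of -0.05, with 42.3% lower and 8.53% lower by 1 or more.

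**Figure D1:**
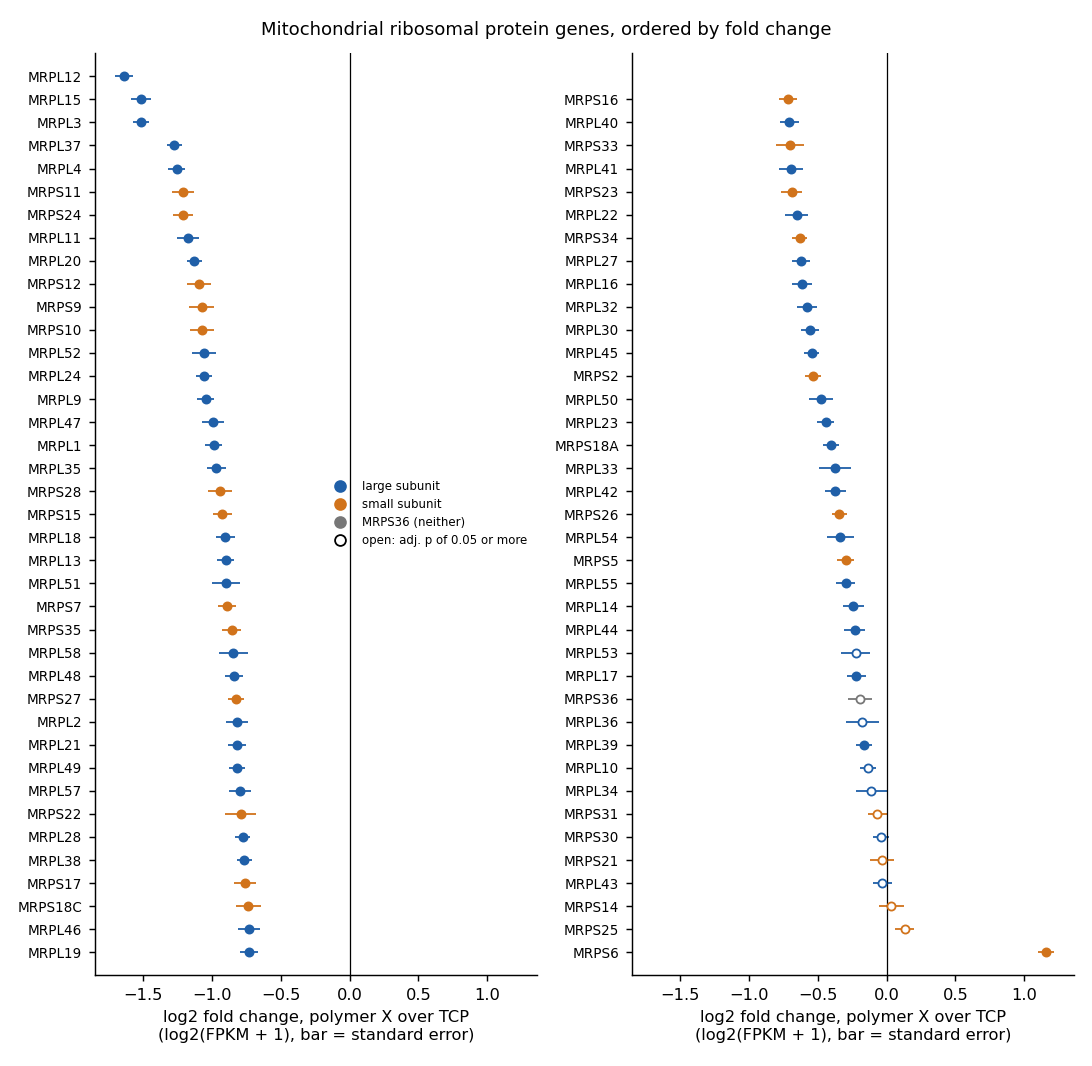
Log2 fold change (polymer X over TCP, on log2(FPKM + 1)) of the 77 tested genes, ordered from the largest fall to the largest rise. Bars are standard errors from limma, filled points passed an adjusted p under 0.05, and 74 of the 77 points lie below 0.

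The replicates of a group also differed in a direction that the genes shared. TCP replicate 1 was above TCP replicate 2 for 67 of the 77 genes (87.0%, against 48.8% of all tested genes), with a median difference of 0.11 on the log2 scale. Polymer X replicate 1 was above replicate 2 for 59 genes (76.6%, against 63.8% of all), with a median difference of 0.10. The genes therefore moved together between replicates too, by an amount well below the -0.73 between groups. Without TCP replicate 1 the median log2 fold change was -0.63, and without TCP replicate 2 it was -0.79. Without polymer X replicate 1 it was -0.76, and without polymer X replicate 2 it was -0.68. The medians of all tested genes were -0.04, -0.05, -0.14 and -0.10 in the same order. The falls lost in these 4 fits, those of MRPL14, MRPL17, MRPL33, MRPL39, MRPL44 and MRPL54, were all small, with log2 fold changes from -0.38 to -0.16.

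The mitochondrial ribosomal protein genes are moderately expressed. Their median was 29.1 FPKM on TCP and 17.7 FPKM on polymer X, and the median ratio of the 2 was 0.578. Among the 8166 genes whose mean level was 5 FPKM or more, 52.4% fell and the median log2 fold change was -0.20. All 77 tested genes passed that stricter filter, with unchanged counts. Within the set the fold change had little relation to level (Spearman's rho of -0.20 over 77 genes, which share their libraries) or to transcript length (rho of 0.01). The order of levels was largely kept, with a rho of 0.91 between the TCP and polymer X means.

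**Figure D2:**
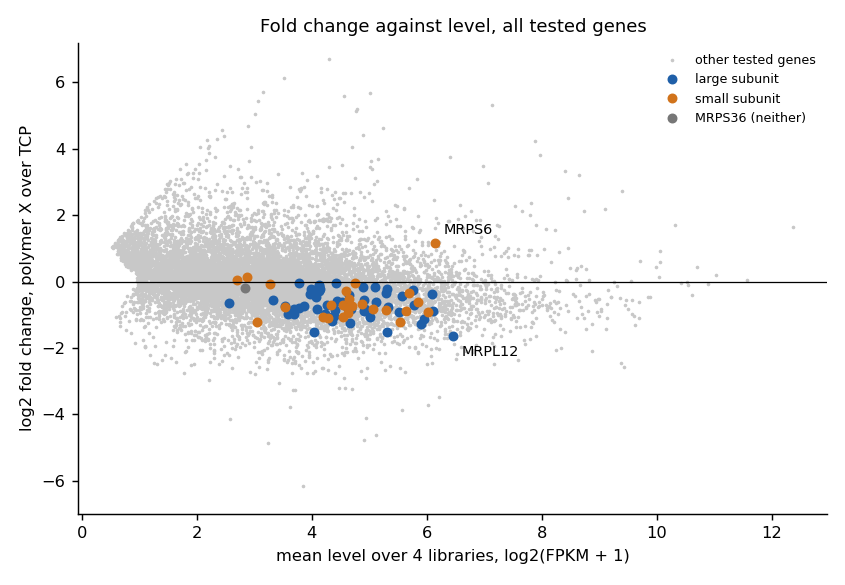
Log2 fold change against the mean of log2(FPKM + 1) over the 4 libraries for all 11964 tested genes in grey and the 77 mitochondrial ribosomal protein genes in colour. The coloured points form a band below 0 with a median of -0.73, with MRPL12 at the highest level in the set and MRPS6 above the band at 1.16.

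The large and small subunit had nearly equal median changes. All tested genes had a median of -0.06, with 43.6% lower and 37.4% higher. Of the 51 large subunit genes 45 fell and none rose (6 did not pass), with a median log2 fold change of -0.73, and of the 25 tested small subunit genes 20 fell, 1 rose and 4 did not pass, with a median of -0.74. The difference between the subunit medians of log2(FPKM + 1), large minus small, was -0.15 and -0.11 in the TCP libraries and -0.11 and -0.23 in the polymer X libraries, and the exact permutation test of that difference between groups gave p = 1. Summed levels gave another reading. The large subunit sum was 2.12 and 2.10 times the small subunit sum on TCP and 1.82 and 1.81 times on polymer X, without overlap (exact permutation p = 0.333, the smallest possible). With MRPS6 left out of the small subunit sum, the ratios were 2.23 and 2.21 on TCP and 2.18 and 2.21 on polymer X.

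Proteins with a bacterial counterpart and those particular to mitochondria were both mostly lower. Among all tested genes, 43.6% fell and 9.45% fell by 1 or more. Of the 46 tested genes with a bacterial homolog, 40 fell and 1 rose, with a median log2 fold change of -0.80, and 13 fell by 1 or more. Of the 30 tested genes without a bacterial homolog, 25 fell and none rose, with a median of -0.69, and 2 fell by 1 or more. This sorting of the genes was written from textbook knowledge after their values were known, and the difference between the classes was not tested.

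The largest fall belonged to the stalk of the large subunit, the flexible arm that recruits translation factors. MRPL12 (transcript NM_002949, hg19 chr17:79670400-79674556), which forms the mobile part of the stalk and is also known to bind the mitochondrial RNA polymerase, was at 159 and 148 FPKM on TCP and 51.0 and 46.4 FPKM on polymer X. It was the most abundant of the 78 on TCP, and its polymer X libraries lay far below, 3.16-fold on the means (log2 fold change -1.64, SE 0.07, limma adjusted p = 3.01e-08). MRPL11, at the base of the stalk (hg19 chr11:66202546-66206319), was at 31.8 and 27.5 FPKM on TCP and 13.1 and 11.9 on polymer X (log2 fold change -1.18, adjusted p = 8.06e-07). MRPL10, which anchors MRPL12 to the ribosome, was at 16.9 and 17.8 FPKM on TCP and 15.6 and 15.8 on polymer X and did not pass (log2 fold change -0.14, adjusted p = 0.058, with the sign turned under quantile normalization). The level of MRPL12 was accordingly 9.43 and 8.33 times that of MRPL10 in the TCP libraries and 3.27 and 2.94 times in the polymer X libraries, again without overlap (exact permutation p = 0.333). MRPL10 was named here after its values were seen, as the partner of MRPL12.

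MRPL15, MRPL3 and MRPL4 were also among the 5 largest falls. MRPL3 (NM_007208, hg19 chr3:131181045-131221860), the counterpart of a protein that reaches toward the peptidyl transferase centre, was at 67.7 and 63.4 FPKM on TCP and 22.8 and 21.8 on polymer X (log2 fold change -1.51, SE 0.06, adjusted p = 2.45e-08). MRPL15 was at 27.5 and 25.8 against 9.21 and 8.14 FPKM (log2 fold change -1.52, adjusted p = 7.60e-08). MRPL4 (hg19 chr19:10362640-10370721), which lines the upper tunnel, was at 38.2 and 38.1 against 16.2 and 14.7 FPKM (log2 fold change -1.26). In these 3 genes the gap between groups was many times the gap within them. Genes of proteins near the tunnel exit, where the new chain leaves toward the inner membrane, covered much of the range of the set: MRPL24 fell with a log2 fold change of -1.06, MRPL47 with -0.99, MRPL22 with -0.65, MRPL45, which holds the ribosome to the membrane, with -0.54, MRPL23 with -0.44, MRPL44 with -0.23 and MRPL17 with -0.22. These genes were named after their values were seen.

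Other large subunit genes with large falls were MRPL37 and MRPL20. MRPL37 (hg19 chr1:54665840-54684056), a protein found in mitochondrial ribosomes and not in bacteria, was at 89.3 and 94.8 FPKM on TCP and 37.2 and 37.9 on polymer X (log2 fold change -1.27, adjusted p = 5.34e-08). MRPL20 (NM_017971, hg19 chr1:1337276-1342693), whose bacterial relative acts early in large subunit assembly, was at 90.7 and 89.1 against 39.7 and 41.5 FPKM (log2 fold change -1.13, adjusted p = 9.46e-08). Both were among the abundant members, and neither group overlapped the other.

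In the small subunit the largest falls were MRPS11, MRPS24 and MRPS12. MRPS11 (NM_001321974, hg19 chr15:89010684-89015851), on the platform near the exit of the messenger RNA, was at 12.6 and 10.8 FPKM on TCP and 4.38 and 4.55 on polymer X (log2 fold change -1.21, adjusted p = 7.59e-07). MRPS24 (hg19 chr7:43906157-43909145), near the entry of the messenger RNA, was at 73.6 and 65.3 against 30.4 and 28.4 FPKM (log2 fold change -1.21, adjusted p = 2.79e-07). A readthrough transcript, URGCP-MRPS24, contains the whole MRPS24 span on the same strand and was itself listed lower (-1.15), so the tags of the pair cannot be told apart. MRPS12 (NM_033363, hg19 chr19:39421594-39423659), the protein of the decoding centre whose bacterial relative governs accuracy, was at 28.5 and 26.3 against 13.6 and 11.2 FPKM (log2 fold change -1.09, adjusted p = 2.48e-06).

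**Figure D3:**
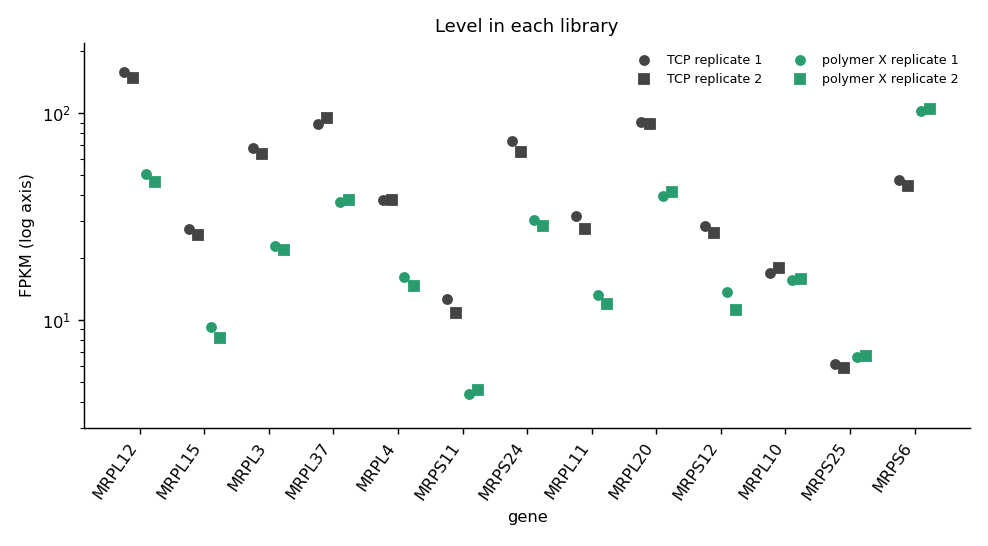
FPKM on a log axis in each of the 4 libraries for the 10 genes with the largest falls, MRPL10, MRPS25 and MRPS6. TCP libraries are dark and polymer X libraries green, with circles for replicate 1 and squares for replicate 2, and the groups do not overlap for any gene shown, with MRPL12 at 159 and 148 against 51.0 and 46.4 FPKM and MRPS6 in the opposite order.

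The abundant genes did not all fall as far. MRPL51 was at 106 and 82.4 FPKM on TCP and 49.3 and 50.3 on polymer X (log2 fold change -0.90, adjusted p = 2.62e-05), and MRPS15 was at 92.5 and 85.2 against 48.8 and 43.9 FPKM (-0.93). MRPL33 was at 89.3 and 66.2 FPKM on TCP and 58.9 and 59.1 on polymer X (log2 fold change -0.38, adjusted p = 0.012). The TCP replicates of MRPL33 lay further apart than the lower of them lay from polymer X, and its call was lost when TCP replicate 1 or either polymer X replicate was left out, with no filter, and under quantile normalization. Its log2 fold change was -0.16 without TCP replicate 1 and -0.04 under quantile normalization.

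MRPS6 went the other way. This protein of the small subunit platform (NM_032476, hg19 chr21:35445823-35515334, plus strand) was at 47.6 and 44.3 FPKM on TCP and 103 and 105 FPKM on polymer X, a rise of 2.26-fold on the means (log2 fold change 1.16, SE 0.06, adjusted p = 1.13e-07). Both polymer X libraries were above every other mitochondrial ribosomal protein gene of their group. The rise passed the test under each alternative setting that was run. The gene SLC5A3, a sodium and myo-inositol cotransporter induced by hypertonic conditions, starts at the same base on the same strand, and its annotated span of 32739 bases lies wholly within that of MRPS6. SLC5A3 was at 7.22 and 7.34 FPKM on TCP and 24.3 and 27.4 on polymer X (log2 fold change 1.70, adjusted p = 3.43e-08). The ratio of MRPS6 to SLC5A3 was 6.60 and 6.03 on TCP and 4.23 and 3.82 on polymer X. Tags in any exon that the pair shares cannot be told apart.

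The 3 human genes related to bacterial S18 gave 3 different readings. MRPS18C was at 36.2 and 29.2 FPKM on TCP and 19.5 and 18.7 on polymer X (log2 fold change -0.74, adjusted p = 4.85e-05). MRPS18A, whose product lies in the large subunit, was at 28.3 and 27.2 against 21.2 and 20.3 FPKM (-0.40, adjusted p = 0.000135). MRPS18B was listed at 0 in all 4 libraries and was the only one of the 78 genes that failed the filter. The table places its transcript on an alternative haplotype of chromosome 6 and gives it 7 copies, and no level is given for it here.

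The genes that did not pass were MRPL10, MRPL34, MRPL36, MRPL43, MRPL53, MRPS14, MRPS21, MRPS25, MRPS30, MRPS31 and MRPS36. Their log2 fold changes lay between -0.23 and 0.13. MRPS25 was the only other gene above 0 without overlap, at 6.13 and 5.83 FPKM on TCP and 6.63 and 6.65 on polymer X (log2 fold change 0.13, adjusted p = 0.097). MRPS30, placed in the large subunit, was at 12.8 in both TCP libraries and 12.3 and 12.5 on polymer X. MRPS36, the oxoglutarate dehydrogenase component, was at 7.28 and 6.01 against 5.93 and 5.41 FPKM (-0.19, adjusted p = 0.075).

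Other transcripts and overlapping genes were examined for each member. Of the 34 genes with more than 1 transcript in the table, 33 had log2 fold changes below 0 for every transcript, and 44 genes had 1 transcript. The library kit kept strand, whereas the tags were counted on both strands, so reads of a gene and of an opposite-strand neighbour that overlaps its exons cannot be told apart. The spans of 10 members overlapped another gene, 8 of them on the opposite strand, as for MRPL57 with SKA3, whose log2 fold change was -2.41, and MRPL14 with TMEM63B, at 0.97. The 67 tested members with no overlap had a median log2 fold change of -0.71 and 57 of them fell, beside 43.6% of all tested genes. Several of these genes are also known to have processed pseudogenes, and how tags that align to more than 1 place were counted is not given in the sources used here.

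The members lie on 21 chromosomes. Many start close to a neighbour on the other strand, an arrangement in which a single stretch of DNA can serve as the promoter of both genes. Whether the pairs here share a promoter was not tested. Within 1000 bases, 25 members had such a head-to-head neighbour. In a single pair both genes were members: MRPL46 and MRPS11 start 51 bases apart, and their log2 fold changes were -0.73 and -1.21. MRPS11 was at 0.650 and 0.658 times the level of MRPL46 on TCP and at 0.418 and 0.446 times on polymer X, without overlap (exact permutation p = 0.333).

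Of the 21 neighbours that were not members and were tested, 12 fell, 5 rose and 4 did not pass, with a median log2 fold change of -0.29. Over all tested genes 43.6% fell and 37.4% rose, and with so few neighbours nothing is read from these counts. MRPS12 starts 58 bases from SARS2, the mitochondrial seryl-tRNA synthetase, whose level was 10.1 ± 0.636 FPKM on TCP and 7.35 ± 0.230 on polymer X (SD, n = 2, log2 fold change -0.41). The ratio of MRPS12 to SARS2 was 2.95 and 2.49 on TCP and 1.81 and 1.55 on polymer X. MRPL43 starts 21 bases from TWNK, the helicase of mitochondrial DNA, and here the member did not pass (-0.03) while TWNK fell (-1.04, adjusted p = 1.12e-06). MRPL2 and KLC4, a kinesin light chain, start 49 bases apart, with log2 fold changes of -0.82 and 0.87. MRPL14 and TMEM63B start 63 bases apart, with -0.24 (0.08 under quantile normalization) and 0.97. MRPL49 and FAU, a cytosolic ribosomal protein gene, start 44 bases apart and both fell, with -0.82 and -0.66.

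**Figure D4:**
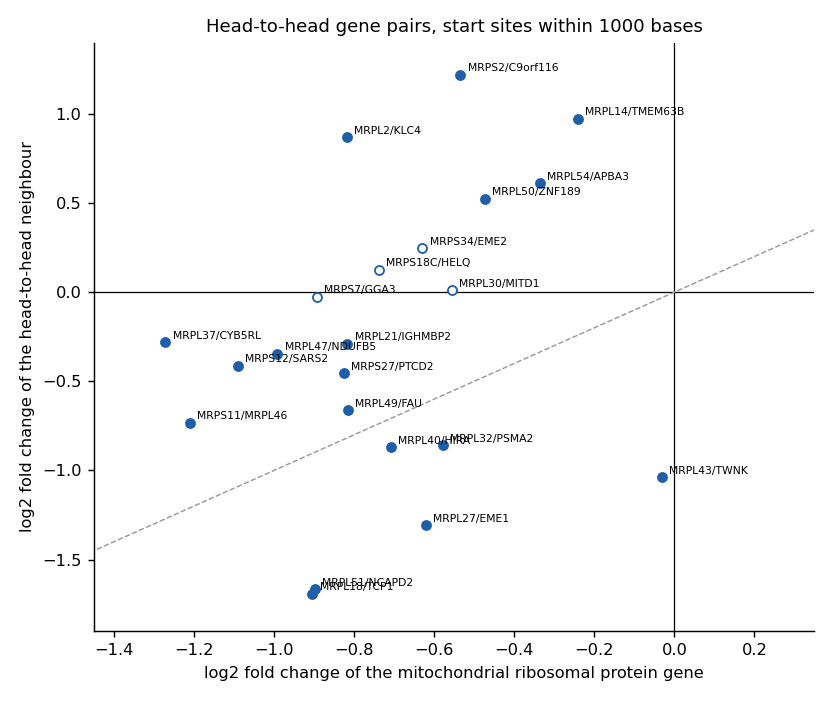
Log2 fold change of each member (horizontal) against that of its head-to-head neighbour (vertical) for pairs whose start sites lie within 1000 bases, with the MRPL46 and MRPS11 pair shown once. Filled points have a neighbour that passed the test, the dashed line marks equal change, and 5 of the 21 neighbours that are not members rose while no member shown did.

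Promoter sequence was compared because the members moved together. RefSeq windows of 300 bases, from 250 before the annotated start to 50 after it (GRCh38.p14, matched by symbol, since the values themselves are on hg19), were found for 69 of the 78 genes, 85 windows in all. Each was searched on both strands for the letters CCGGAAG (bound by GABP and other ETS factors), AAGATGGC (YY1), GCGCATGC (the core of the NRF1 site), CACGTG (the E-box bound by MYC and MAX), GGGCGG (SP and KLF factors) and CCAAT. No 2 of these contain each other. CCGGAAG was present in 38.8% of the members' windows, 10.3% of all 35116 windows and 17.2% of the windows of tested genes. AAGATGGC was present in 27.1%, 2.89% and 4.87%. GCGCATGC was present in 7.06%, 3.05% and 4.77%, and CACGTG in 10.6%, 7.26% and 9.24%. GGGCGG was present in 60.0%, 45.0% and 66.8%, and CCAAT in 32.9%, 34.6% and 34.6%. In the windows of the cytosolic ribosomal protein genes CCGGAAG was present in 33.8% and AAGATGGC in 8.75%. These shares are descriptions of the letters, not of binding.

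The 4 windows below are examples and do not stand for the whole set. MRPL20 and MRPS12 are among the largest falls, MRPL52 (log2 fold change -1.06) has 3 kinds of match, and MRPS6 is the gene that rose; all were picked after their values were seen. Capitals mark CCGGAAG, AAGATGGC and GCGCATGC, on either strand, and E-box letters would have been marked but were absent. Each runs 5′ to 3′ on the strand of its gene in GRCh38.p14, with MRPL20 at chr1:1407244-1407543 (minus), MRPS12 at chr19:38930694-38930993 (plus), MRPL52 at chr14:22829637-22829936 (plus) and MRPS6 at chr21:34073328-34073627 (plus).
MRPL20: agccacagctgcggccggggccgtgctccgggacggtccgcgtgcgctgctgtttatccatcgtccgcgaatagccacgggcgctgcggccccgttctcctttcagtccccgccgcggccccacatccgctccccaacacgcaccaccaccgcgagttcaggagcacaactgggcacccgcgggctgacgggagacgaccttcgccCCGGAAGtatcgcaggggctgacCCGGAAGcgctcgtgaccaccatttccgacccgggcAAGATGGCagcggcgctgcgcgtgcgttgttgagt
MRPS12: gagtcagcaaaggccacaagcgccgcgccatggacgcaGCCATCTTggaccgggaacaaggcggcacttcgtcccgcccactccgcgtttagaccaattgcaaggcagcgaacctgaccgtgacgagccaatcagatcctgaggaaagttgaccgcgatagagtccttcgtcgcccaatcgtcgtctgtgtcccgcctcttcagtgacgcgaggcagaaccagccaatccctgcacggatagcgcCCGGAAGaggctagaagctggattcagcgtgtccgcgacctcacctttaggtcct
MRPL52: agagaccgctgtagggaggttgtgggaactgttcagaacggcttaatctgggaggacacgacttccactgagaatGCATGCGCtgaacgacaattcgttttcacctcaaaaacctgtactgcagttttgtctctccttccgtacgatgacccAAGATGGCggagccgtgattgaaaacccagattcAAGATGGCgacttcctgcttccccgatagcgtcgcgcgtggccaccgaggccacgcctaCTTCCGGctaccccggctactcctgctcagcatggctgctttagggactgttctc
MRPS6: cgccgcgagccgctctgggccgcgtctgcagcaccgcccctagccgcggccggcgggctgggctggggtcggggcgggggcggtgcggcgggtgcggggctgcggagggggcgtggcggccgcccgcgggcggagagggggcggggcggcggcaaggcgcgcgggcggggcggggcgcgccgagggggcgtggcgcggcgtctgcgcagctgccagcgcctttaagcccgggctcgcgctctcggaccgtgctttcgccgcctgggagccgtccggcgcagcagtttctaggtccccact

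In the MRPL20 window CCGGAAG lies at bases 207 to 213 and 230 to 236, just before the start site, and AAGATGGC at bases 266 to 273, just after it. The MRPS12 window has CCGGAAG at bases 246 to 252 and AAGATGGC on the other strand at bases 39 to 46. The latter begins 212 bases before the start site, farther away than the start of SARS2, which lies 58 bases from MRPS12 on hg19. The MRPL52 window holds AAGATGGC at bases 153 to 160 and 187 to 194, with CCGGAAG on the other strand at bases 246 to 252. The MRPS6 window holds none of the marked letters. MRPL12, with the largest fall, had none of the 6 kinds of letters in its window. Among the 69 members with a window, 30 held CCGGAAG and 21 held AAGATGGC.

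The place of AAGATGGC in the windows was recorded too. Of its 18 matches in the printed direction, 16 (88.9%) lay in the last 50 bases of the window, after the start site, compared with 439 of 685 (64.1%) over all windows. Of the 6 matches on the other strand 0 lay there, compared with 84 of 371 (22.6%) over all windows. These 6 matches are too few to read a difference from. Windows of a gene can overlap, as for MRPS12 and MRPL47, so a site can be counted more than once.

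Genes of the same pathway were lower in most lists, beside 43.6% lower and 37.4% higher over all tested genes. The other proteins of the mitochondrial ribosome that carry different symbols all fell, 5 of 5, with a median log2 fold change of -0.78. DAP3, the GTP-binding protein of the small subunit head, was at 34.8 and 31.9 FPKM on TCP and 19.7 and 17.2 on polymer X (-0.82). AURKAIP1 (-1.22), GADD45GIP1 (-0.78), PTCD3 (-0.28) and CHCHD1 (-0.25) are the rest, and the call of CHCHD1 was lost under quantile normalization, with no filter and without TCP replicate 1.

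Among 29 genes for assembly of the mitochondrial ribosome 23 fell and 3 rose, with a median of -0.43. By the same test 43.6% of all tested genes fell and 37.4% rose, beside which each count here is to be read. C1QBP, a matrix protein needed for mitochondrial translation, was at 93.1 and 92.8 FPKM on TCP and 29.2 and 28.4 on polymer X (-1.66, adjusted p = 8.06e-09), and RCC1L (-1.05) and MTERF3 (-0.97) also fell. The 3 that rose were MTERF4 (0.39), YBEY (0.30) and METTL15 (0.25). Of 18 translation factors and mRNA-binding proteins 15 fell and 1, the initiation factor MTIF3 (0.40), rose, with a median of -0.61. The elongation factor genes TUFM (-1.09) and GFM1 (-1.06) fell, as did SLIRP, whose TCP replicates were far apart at 87.7 and 54.7 FPKM (-1.33, a call lost with no filter). Of 19 tested genes for mitochondrial tRNA synthetases and the tRNA amidotransferase subunits QRSL1, GATB and GATC, 15 fell and none rose. Their median was -0.41, and QRSL1 (-0.90) and the synthetase YARS2 (-0.73) were among those that fell.

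Upstream of the ribosome, 10 of 12 genes for replication and transcription of mitochondrial DNA fell and 1, POLG2 (0.46), rose. The shares over all tested genes, 43.6% lower and 37.4% higher, are the background for this and the next 2 lists. MGME1 (-1.41), TWNK (-1.04) and TFAM, which packages mitochondrial DNA and starts its transcription (-0.97), had the largest falls. Of 15 genes for mitochondrial RNA processing 14 fell, led by PNPT1 (-1.07), REXO2 (-1.06) and ELAC2 (-1.05), and KIAA0391, a subunit of mitochondrial RNase P, rose (0.21). Of 29 genes for protein import and its chaperones 25 fell and none rose, with a median of -0.75, close to that of the ribosomal protein genes. TOMM40, the channel of the outer membrane, was at 67.8 and 68.2 FPKM on TCP and 19.7 and 17.9 on polymer X (-1.80), and HSPD1 (-1.75) and TOMM22 (-1.58) followed.

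The nuclear genes of the respiratory chain had a median closer to 0. Of 59, 46 fell and 3 rose, with a median of -0.40, beside 43.6% lower and 37.4% higher among all tested genes. CYC1 (-1.19) and NDUFA9 (-1.16) had the largest falls. UQCRH rose (1.29), but at levels of 0.169 and 0.180 FPKM on TCP and 1.86 and 1.87 on polymer X, and it has a near-identical copy elsewhere in the genome, so its value is uncertain. The other rises were NDUFA5 (0.33) and NDUFB4 (0.21). Quantile normalization left 29 genes lower and a median of -0.14 in this list. Under that setting 42.3% of all tested genes were lower, with a median of -0.05.

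Cytosolic ribosomal protein genes also fell in nearly every case. Of 81 tested, 77 fell and none rose, with a median of -0.70, beside 43.6% lower and 37.4% higher among all tested genes. The summed level of the list was 32342 and 28137 FPKM on TCP and 18410 and 17911 FPKM on polymer X. The ratio was 0.601, beside the 0.612 of the mitochondrial set and the 0.889 of all tested genes. RPS26 (-1.75), RPSA (-1.67) and RPS2 (-1.44) had the largest falls, though these genes have many near-identical pseudogene copies and their levels are uncertain.

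**Figure D5:**
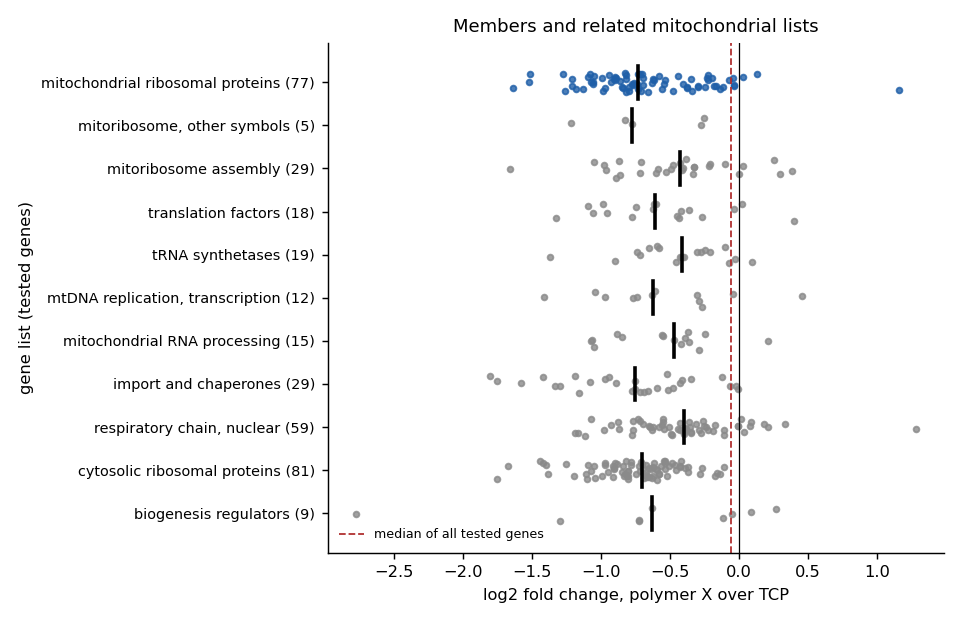
Log2 fold change (polymer X over TCP) of every tested gene in the mitochondrial ribosomal protein set and in 10 related lists, with the number tested in parentheses and a black bar at each list's median. The dashed line is the median of all tested genes at -0.06, and the list medians lie between -0.40 and -0.78.

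Of 11 genes listed as regulators of mitochondrial biogenesis, 9 were tested, and 5 fell, 1 rose and 3 did not pass. Over all tested genes 43.6% fell, so the count says little about the regulators as a list, and their values are given singly. MYC, which drives growth genes including many for ribosomes, was at 19.7 and 20.4 FPKM on TCP and 1.99 and 2.16 on polymer X (log2 fold change -2.78, adjusted p = 2.14e-09). PPRC1, a coactivator of the PGC family, fell (-1.30), and YY1 was at 43.0 and 43.9 against 26.2 and 25.7 FPKM (-0.72). NRF1 (-0.72) and GABPB1 (-0.63) fell, whereas GABPA, the DNA-binding subunit of GABP, was at 8.76 and 8.12 against 7.72 and 7.67 FPKM and did not pass (-0.12). SP1 rose (0.27), and MAX (-0.05) and ESRRA (0.09) did not pass. PPARGC1A and PPARGC1B were under 1 FPKM in every library. These are mRNA levels, and their part in the fall of the ribosomal protein genes was not tested.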

How the data were processed

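mRNA of SKOV3 cells was sequenced from strand-keeping libraries, 2 on TCP and 2 on polymer X. The authors deposited FPKM per RefSeq transcript, made per the file headers with HOMER over exons on both strands of hg19. The submitters' processing notes name STAR 2.4.0, HOMER and DESeq. Libraries named in the header other than these 4 were not used here. Depth was read from the steps of the low FPKM values and is approximate.

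A symbol with several transcripts was represented by that of highest mean FPKM. Genes that reached an FPKM of 1 in 2 or more libraries were fitted with limma 3.58.1 (R 4.3.3, variance trend) on log2(FPKM + 1), with p-values adjusted over all 11964 tested genes, two-sided, and called at 0.05. The deposited FPKM are not counts, so no count test was run. The fit was tested on simulated data, where fitted changes were smaller than those put in. Values per library were compared by exact two-sided permutation tests (scipy 1.17.1). Members, lists and promoters were chosen with earlier results of these data known.

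Genes named by rule were the 10 largest rises (1 existed) and 10 largest falls that passed, the 5 most abundant, those failing the filter, the MRPS18 genes and MRPS36, and in related lists the mitoribosome proteins with other symbols and the 3 largest changes of each list, of which 1 gene is not reported here. Others named were chosen after their values were seen. Over all 11964 tested genes, samples with the same replicate number hardly deviated together (r = 0.093), so no block was used. No such r is given here for the members alone. Alternatives were the pseudocount, filter, scaling, transcript choice, variance trend, block and each library left out.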

Additional observations from a re-analysis of the deposited data

How the results depend on the processing

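No alternative reversed a gene named by the rule or a list median. Under quantile normalization 2 other genes that had fallen, MRPL14 (0.08) and MRPL39 (0.07), lay above 0 without passing. The count of mitochondrial ribosomal protein genes that fell lay between 56 (no filter, where all 19475 symbols were tested) and 68. The count that rose became 2 with a common median, where MRPS25 joined MRPS6, and 3 under quantile normalization, where MRPL43 and MRPS21 joined it and 57 fell. Quantile normalization moved the medians to -0.52 for the whole set, -0.55 for the large and -0.51 for the small subunit, and left 5 genes with a fall of 1 or more; the cause was not tested. It also gave -0.45 for mitoribosome proteins with other symbols, -0.48 for assembly, -0.44 for translation factors and -0.57 for RNA processing. For regulators it gave -0.46, for import -0.52, for the respiratory chain -0.14 with 29 falls, and for cytosolic ribosomal proteins -0.41. All tested genes had a median of -0.05 under quantile normalization, with 42.3% lower. A common median gave -0.39 for assembly and -0.57 for translation factors. A mean FPKM of at least 5 gave -0.51 for assembly, -0.55 for RNA processing and -0.37 for regulators. No filter gave -0.23 for regulators and 30 falls in the respiratory chain, with 24.9% of all symbols lower. A pseudocount of 0.1 gave -0.48 for assembly, -0.71 for mitochondrial DNA genes and -0.60 for RNA processing, and summed transcripts gave -0.46 for assembly and -0.41 for regulators.

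Leaving out each library in turn gave a median between -0.79 and -0.63 for the whole set, and between -0.14 and -0.04 for all tested genes. A lone library is then assumed to vary like the others. The medians ranged over -0.81 to -0.63 for the small subunit, -0.87 to -0.68 for mitoribosome proteins with other symbols, -0.45 to -0.39 for assembly, -0.70 to -0.51 for mitochondrial DNA genes, -0.51 to -0.41 for RNA processing, -0.81 to -0.67 for import and -0.53 to -0.34 for the respiratory chain.

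With the replicate block 68 genes fell and 1 rose, beside 44.3% lower and 38.3% higher among all tested genes. The median of the set stayed at -0.73, and MRPL36, MRPL53 and MRPS36 joined those that fell. What the shared replicate numbers mean is not given in the labels. With 2 libraries a group, no single-gene permutation test can pass, and the precision of low genes is limited by their tags.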
